A study of Mus musculus with 10 samples.

Results

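The genes described here encode the subunits that turn the standard proteasome into the immunoproteasome, together with the 3 standard subunits that are displaced. They are 8 genes, chosen by name among the 55487 genes of the count table: 5 induced genes (Psmb8, Psmb9, Psmb10, Psme1 and Psme2) and 3 constitutive genes (Psmb5, Psmb6 and Psmb7). All 8 passed the filter on low counts. They were measured in poly(A)-selected liver RNA of mice aged 22 months (strain C57B/6J, as the labels spell it) that were kept on normal chow. The 5 Flox libraries are from mice with floxed Arg2 alleles (Arg2fl/fl), and the 5 LKO libraries are from co-housed littermates lacking Arg2 in hepatocytes (Arg2LKO). The Cre driver of the deletion is not given in the sources used here, and whether each library comes from its own mouse is not spelled out. Both groups carry floxed alleles or their deleted product, and no group without them was used. The study asked how loss of hepatocyte Arg2, the mitochondrial arginase, alters gene expression in old liver.

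The proteasome is the barrel-shaped protease that degrades ubiquitin-tagged proteins. Its cutting sites lie on 3 beta subunits. Psmb6 carries the caspase-like site, Psmb7 the trypsin-like site and Psmb5 the chymotrypsin-like site. Interferon-gamma induces a replacement for each: Psmb9 for Psmb6, Psmb10 for Psmb7 and Psmb8 for Psmb5. The exchanged particle favours peptides that fit MHC class I molecules. Psme1 and Psme2 encode the alpha and beta chains of PA28, a cap that opens the barrel without ubiquitin and is also induced by interferon-gamma. Blood-derived cells make the immunoproteasome without stimulation, whereas resting hepatocytes hold mainly the standard form. In whole liver, fewer cells of a type and less RNA per cell cannot be told apart.

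The libraries held 43331354 to 54951415 gene counts and 21937 to 23811 detected genes. Arg2 had 9 counts over the Flox libraries and 10 over the LKO libraries, so these counts do not check the deletion. The liver markers were abundant, with Alb (albumin) at 35270 to 122600 CPM (counts scaled to library size, with TMM factors). Flox 3 had the highest and Flox 4 the next highest value of each induced subunit, and the group differences of these genes are given with and without both libraries. Flox library 3 was also the lowest for Alb, at 35270 CPM, and the highest for the acute phase gene Saa2, at 17180 CPM. LKO libraries are numbered by their columns in the table.

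Psmb8 and Psmb9 lie beside the peptide transporter genes, and short sequences near the start sites of the members are shown because the 5 induced genes had parallel profiles over the libraries. On chromosome 17 (GRCm38), Psmb9 (34181987 to 34187764, minus strand) overlaps the first 212 bases of Tap1, and Psmb8 (34197721 to 34201454, plus strand) starts 495 bases beyond the end of Tap1. Psme1 (55578123 to 55581529, plus strand) and Psme2 (55587441 to 55591113, minus strand) are 5911 bases apart on chromosome 14. Psmb10 (105935735 to 105938444) lies on chromosome 8. The constitutive Psmb5 (54614119 to 54618022), Psmb6 (70525367 to 70527858) and Psmb7 (38588036 to 38644087) lie on chromosomes 14, 11 and 2. RefSeq promoter windows (GRCm38.p6, 250 bases before to 50 after a start) were matched by symbol for 7 of the 8 genes, Psmb7 having none. They were searched on both strands for the interferon-stimulated response core (GAAA, any 2 bases, GAAA), the gamma-activated site TTCNNNGAA, which is its own reverse complement, and the antioxidant response core TGACNNNGC. In the lines that follow, read 5′ to 3′ on the strand of each gene, capitals mark the match.
Psmb8, gamma-activated site, chr17:34198088-34198116, plus strand: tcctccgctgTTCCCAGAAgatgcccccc
Psme1, interferon-stimulated response core on the opposite strand, chr14:55578493-55578522, plus strand: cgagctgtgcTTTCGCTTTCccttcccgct
Psmb5, antioxidant response core, chr14:54618024-54618052, minus strand: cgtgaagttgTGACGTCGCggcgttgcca
Psmb6, antioxidant response core, chr11:70525338-70525366, plus strand: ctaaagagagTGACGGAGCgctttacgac

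Both interferon-type matches were in induced genes and both antioxidant matches in constitutive ones, while the windows of Psmb9, Psmb10 and Psme2 held none of the 3 motifs. The match of Psmb8 ends 89 bases before the RefSeq start, and that of Psme1 begins 10 bases after it. The windows of Psmb8 (34197945 to 34198244), Psmb9 (34187281 to 34187580) and Psme1 (55578244 to 55578543) lie wholly inside the gene spans given above. Those spans are from GENCODE, whose outer gene ends differ from the RefSeq starts. Of all 32851 windows of this length, 3.44% held the response core, 8.3% the gamma-activated site and 12.4% the antioxidant core. A match is a run of letters and was not tested for binding.

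The 3 induced catalytic subunits varied far more between libraries than any other member. Psmb8 stood at 22.1, 30.7, 139, 49.4 and 22.4 CPM in Flox libraries 1 to 5 and at 14.4, 33.8, 24.8, 21.3 and 19.2 CPM in LKO columns 1 to 5. Flox 3 held the highest value and Flox 4 the next, and the other 3 Flox libraries lay within the LKO range. The Flox mean was 52.8 ± 49.6 CPM and the LKO mean 22.7 ± 7.25 CPM (SD, n = 5 each). By edgeR's quasi-likelihood test the log2 fold change was -1.22 ± 0.53 (SE; unadjusted p = 0.0461, adjusted p = 0.652). Psmb8 shares 498 exon bases, 14.7% of its exon length, with Gm20496 on the opposite strand, which had 0 counts. Whether reads there were counted for Psmb8 is not known.

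Psmb9 was at 17.97, 18.4, 120.2, 46.9 and 21.5 CPM in the Flox libraries and 13.5, 23.6, 18.96, 14.8 and 18.3 CPM in the LKO libraries. The order of the libraries was much as for Psmb8, with Flox 3 and 4 above all LKO libraries and the others mixed. Its means of 45 ± 43.7 and 17.8 ± 3.96 CPM (SD, n = 5 each) gave the fold change farthest from 0 among the 8 genes, -1.33 ± 0.54 on the log2 scale (SE; edgeR unadjusted p = 0.0349, adjusted p = 0.652). Psmb9 shares 212 exon bases, 5.79% of its exon length, with Tap1 on the opposite strand. Since the strand setting of the counting is not given, reads there cannot be assigned to either gene.

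Psmb10 was at 29.6, 40.1, 157, 70.7 and 31.1 CPM in Flox and at 21.6, 40.7, 39.4, 30.4 and 34.5 CPM in LKO. Again Flox 3 and 4 exceeded every LKO library, and Flox 1 lay below all but 1 of them. The means were 65.7 ± 53.7 against 33.3 ± 7.74 CPM (SD, n = 5 each), with a log2 fold change of -0.98 ± 0.46 (SE; edgeR unadjusted p = 0.0621, adjusted p = 0.652). LKO column 1 had the lowest value of the 10 libraries for all 5 induced genes.

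The PA28 chains were more abundant and less variable. Psme1 was at 154, 133, 289, 176 and 135 CPM in Flox and at 118, 172, 126, 121 and 135 CPM in LKO. Its highest library was Flox 3, but Flox 4 (176 CPM) was only slightly above LKO column 2 (172 CPM). The means were 177 ± 64.5 and 134 ± 22.0 CPM (SD, n = 5 each), and the log2 fold change was -0.40 ± 0.21 (SE; edgeR unadjusted p = 0.0800, adjusted p = 0.656).

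Psme2 was at 68.5, 86.6, 164.9, 89.2 and 62.1 CPM in Flox and at 58.6, 74.6, 62.6, 63.6 and 63.7 CPM in LKO. Here Flox 2 joined Flox 3 and 4 above all LKO libraries. The means of 94.3 ± 41.2 and 64.6 ± 5.97 CPM (SD, n = 5 each) corresponded to a log2 fold change of -0.54 ± 0.23 (SE; edgeR unadjusted p = 0.0377, adjusted p = 0.652). Psme2b, a retrogene copy of Psme2 on chromosome 11, had 206 to 564 counts in Flox and 176 to 254 in LKO, and reads of the copies may be split or lost, so both values are uncertain.

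**Figure D1:**
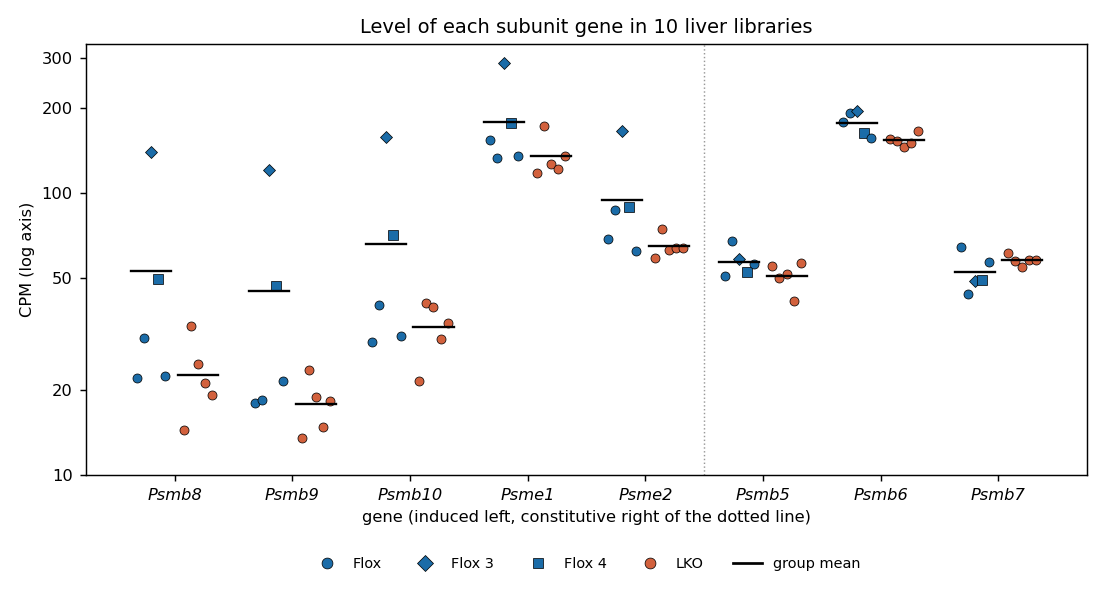
CPM of each subunit gene (log axis) in the 5 Flox (blue) and 5 LKO (orange) libraries, with a line at each group mean; diamonds are Flox 3 and squares Flox 4. Psmb8, Psmb9 and Psmb10 reach 139, 120.2 and 157 CPM in Flox 3, whereas the constitutive genes stay within narrow ranges.

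The constitutive subunits kept narrow ranges. Psmb5 was at 50.8, 67.5, 58.4, 52.3 and 55.9 CPM in Flox and at 55.1, 50.1, 51.6, 41.4 and 56.2 CPM in LKO. The groups overlapped, with Flox 2 highest and LKO column 4 lowest. Its log2 fold change was -0.16 ± 0.11 (SE; edgeR unadjusted p = 0.157, adjusted p = 0.681). Psmb5 shares 109 exon bases, 12.1% of its exon length, with Mir686 on the same strand, which had 0 counts. Whether reads there were counted for Psmb5 is not known.

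Psmb6 was at 177, 191, 194.5, 162 and 156.5 CPM in Flox and at 155, 152.5, 146, 150.3 and 165 CPM in LKO. Flox 1, 2 and 3 lay above all LKO libraries, and 4 LKO libraries lay below all Flox libraries. The difference was small, at a log2 fold change of -0.20 ± 0.09 (SE; edgeR unadjusted p = 0.0552, adjusted p = 0.652), between means of 176 ± 16.9 and 154 ± 7.24 CPM (SD, n = 5 each).

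Psmb7 was the 1 member with a higher LKO mean. It stood at 64.1, 43.7, 48.8, 49.2 and 56.7 CPM in Flox and at 60.9, 57.5, 54.4, 57.9 and 57.8 CPM in LKO. Flox 2, 3 and 4 were its lowest libraries and Flox 1 its highest, so the groups overlapped (log2 fold change 0.14 ± 0.10 SE; edgeR unadjusted p = 0.213, adjusted p = 0.717). Its exons share 405 bases (11.8% of their length) with Nek6 on the opposite strand, and reads there cannot be assigned with the strand setting not given.

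As a group, the 5 induced genes had lower LKO means in 5 of 5 cases, and 0 passed the test at an adjusted p under 0.05. Of all 15894 genes tested, 0 (0%) passed it, and the smallest adjusted p was 0.652. Psmb8, Psmb9 and Psme2, 3 of the 5 induced genes, and 0 of the 3 constitutive genes had an unadjusted p under 0.05. Among all genes 7.51% (1193) lay under that limit, 4.33% on the lower side and 3.17% on the higher side. The median log2 fold change was -0.98 over the induced genes, -0.16 over the constitutive ones and -0.01 over all genes, of which 51.6% had a negative value. For 0 of the 8 members did the groups fail to overlap, against 0.906% of all genes, 0.371% with lower LKO values. DESeq2's Wald test called 0 genes at an adjusted p under 0.05 and limma-voom 0. At an unadjusted p under 0.05 they had 1603 (4.87% of 32926 genes) and 1049 (6.6% of 15894 genes).

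The size of the difference in the induced genes rested on 2 control libraries. Without Flox 3 the log2 fold changes were -0.46 for Psmb8, -0.56 for Psmb9, -0.37 for Psmb10, -0.15 for Psme1 and -0.24 for Psme2, and 0 of them had an unadjusted p under 0.05. Without Flox 3 and 4, a choice made after the values were seen, they were -0.14, -0.11, -0.01, -0.07 and -0.17. The Flox means of Psmb8, Psmb9 and Psmb10 were then 25.0, 19.3 and 33.6 CPM, close to the LKO means. The values of the constitutive genes moved less, to -0.19, -0.19 and 0.07 for Psmb5, Psmb6 and Psmb7 without both libraries.

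**Figure D2:**
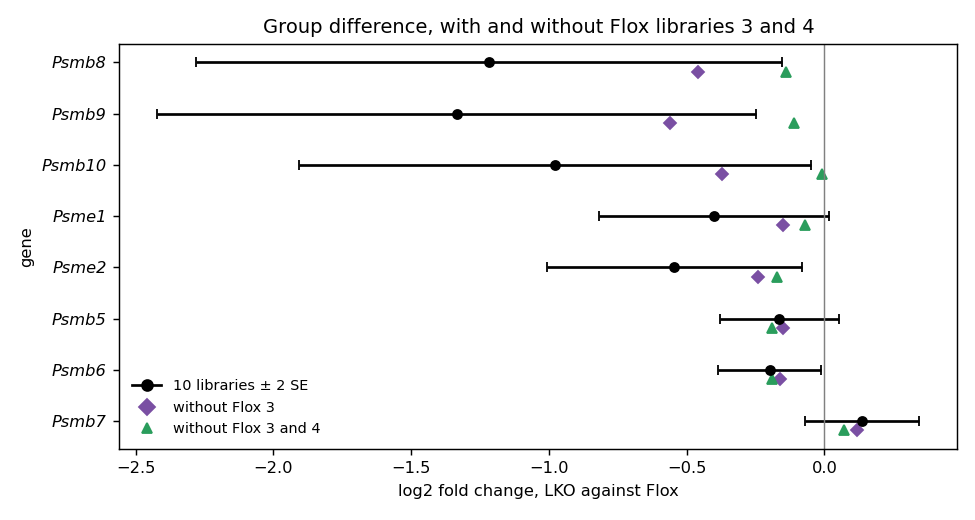
Log2 fold change of LKO against Flox for each gene over 10 libraries (black, bars of 2 SE), without Flox 3 (purple diamonds) and without Flox 3 and 4 (green triangles). The values of the induced genes move from between -1.33 and -0.40 to between -0.17 and -0.01 once both libraries are left out.

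The exchange of subunits was read as the ratio of each induced gene to the constitutive gene it replaces, which needs no scaling between libraries. The count ratio of Psmb8 to Psmb5 was 0.435, 0.454, 2.38, 0.945 and 0.401 in Flox and 0.262, 0.675, 0.480, 0.513 and 0.341 in LKO. Only in Flox 3, among these 10 libraries, did Psmb8 have more counts than Psmb5. The ratio of Psmb9 to Psmb6 was 0.101, 0.0963, 0.618, 0.289 and 0.138 in Flox and 0.0872, 0.155, 0.130, 0.0984 and 0.111 in LKO. In each library Psmb6 had more counts than Psmb9.

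The ratio of Psmb10 to Psmb7 was 0.461, 0.918, 3.22, 1.44 and 0.548 in Flox and 0.354, 0.708, 0.724, 0.525 and 0.596 in LKO. Flox 3 and 4 exceeded all LKO libraries in each of the 3 ratios, and Flox 2 did so for Psmb10 to Psmb7, where its Psmb7 was the lowest of all libraries. The differences of the mean log2 ratios (LKO minus Flox) were -0.72 ± 0.55 for Psmb8 to Psmb5, -0.73 ± 0.53 for Psmb9 to Psmb6 and -0.85 ± 0.54 for Psmb10 to Psmb7 (SE of the difference, n = 5 each). By two-sided exact permutation tests over the libraries, the p-values were 0.246, 0.254 and 0.159, each 0.254 after adjustment over the 3 pairs, where the design allows a smallest p of 0.00794. None passed. Without Flox 3 the differences were -0.28, -0.30 and -0.43, and without Flox 3 and 4 they were 0.01, 0.05 and -0.13, so that the direction turned for the first 2 ratios.

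Counts of different genes can be set side by side only per length. Per kilobase of annotated exon, Psmb8 made up 10.4%, 10.8%, 38.8%, 20.1% and 9.63% of the sum of Psmb8 and Psmb5 in Flox, and 6.52% to 15.2% in LKO. The share of Psmb9 within its pair was 4.93%, 4.70%, 24.0%, 12.9% and 6.57% in Flox and 4.27% to 7.34% in LKO. The share of Psmb10 was 48.1%, 64.8%, 86.6%, 74.2% and 52.4% in Flox and 41.5% to 59.2% in LKO. At the transcript level the 3 positions therefore differed in the share of the induced subunit, with the pair of Psmb9 lowest and that of Psmb10 highest in each library. The length used moves these shares, since several members have long annotated exons outside their principal transcript. Reads in exon bases that Psmb8, Psmb9, Psmb5 and Psmb7 share with other genes may also move the ratios and shares. With principal transcript lengths the shares in Flox 3 were 56.8%, 26.7% and 74.0%, and the LKO ranges were 12.6% to 27.2%, 4.89% to 8.38% and 23.8% to 39.0%.

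**Figure D3:**
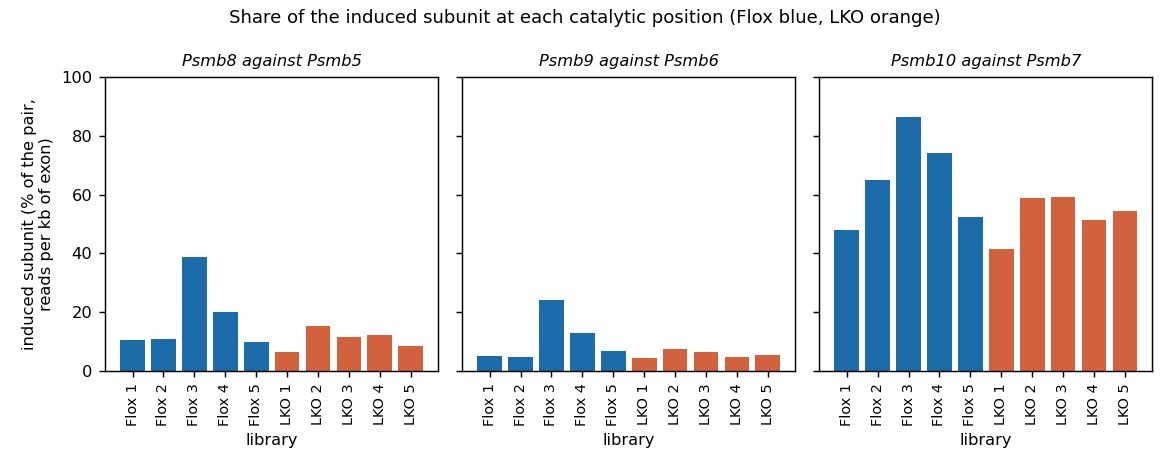
Share of the induced subunit in the sum of the induced and constitutive gene, in percent of reads per kilobase of exon, for each library (Flox blue, LKO orange). In each panel Flox 3 is highest, at 38.8%, 24.0% and 86.6%, and Flox 4 next.

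Levels scaled to exon length (RPKM, which is CPM per kilobase) ranked Psmb6 first, at 88.1 ± 9.13, before Psme1 at 70.6 ± 23.0 and Psmb5 at 60.0 ± 7.46 (mean ± SD over 10 libraries). Psme2 (45.04 ± 18.04 RPKM), Psmb10 (29.0 ± 23.4 RPKM) and Psmb7 (16.1 ± 1.81 RPKM) followed. Psmb8 (11.2 ± 10.95 RPKM) and Psmb9 (8.58 ± 8.90 RPKM) were lowest. Neighbours in this order differed by less than the larger of their SDs in each case. With principal transcript lengths Psmb6 (207 RPKM) and Psme1 (140 RPKM) stayed first, Psme2 (82.6 RPKM) moved above Psmb5, Psmb7 (47.5 RPKM) moved above Psmb10 (37.8 RPKM), and Psmb8 and Psmb9 were level at 23.2 RPKM. The order also depended on the group. With all exons Psmb8 (15.6 RPKM) was just above Psmb7 (15.35 RPKM) in Flox, against 6.71 and 16.9 RPKM in LKO. With principal lengths Psmb10 (50.1 RPKM) was above Psmb7 (45.3 RPKM) in Flox, against 25.4 and 49.8 RPKM in LKO.

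The spread over libraries separated the induced catalytic genes from the constitutive ones. The SD of log2 CPM was 0.92 for Psmb8, 0.95 for Psmb9 and 0.81 for Psmb10, at percentiles 94.1, 94.6 and 91.0 of all genes tested. It was 0.39 for Psme1 and 0.45 for Psme2 (percentiles 62.7 and 69.0). For Psmb5, Psmb6 and Psmb7 it was 0.18, 0.15 and 0.17 (percentiles 22.5, 12.4 and 18.7), where the median gene had 0.30. The highest library exceeded the lowest 9.65-fold for Psmb8 and 1.34-fold for Psmb6. These are descriptions of the 10 libraries, and the spread in Flox (1.11 for Psmb8) includes the 2 high libraries, against 0.45 in LKO.

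The 5 induced genes followed one another. Over the 10 libraries, the 10 pairs among them had Pearson's r of log2 CPM from 0.91 to 0.98 and Spearman's rho from 0.65 to 0.92. Without Flox 3 and 4, the 2 libraries farthest from the median, r ranged from 0.41 (Psmb9 with Psme2) to 0.89 (Psmb8 with Psmb10). The constitutive genes did not form such a set. Psmb5 and Psmb6 had r = 0.66 (rho = 0.71), whereas Psmb7 had r = -0.60 with Psmb5 and r = -0.53 with Psmb6. The r of Psmb6 with Psmb7 was 0.35 without Flox 2 and 3, the libraries farthest from the median of Psmb6. The 15 pairs of an induced with a constitutive gene had r from -0.64 (Psme2 with Psmb7) to 0.73 (Psme2 with Psmb6). Without Flox 3 and 4 these were -0.71 and 0.69, while Psme2 had r from 0.41 to 0.80 with the other induced genes. Psme2 was thus not set apart from Psmb6 outside those 2 libraries. All these values share the scaling of the libraries and are descriptions over 10 libraries.

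The profiles most like each member were ranked by Pearson's r of log2 CPM over the 10 libraries. The 3 closest of 11004 genes were Il18bp (a decoy receptor of interleukin-18; r = 0.983), Tapbp (tapasin, 0.980) and Zbp1 (a nucleic acid sensor, 0.979) for Psmb8. They were Tapbpl (0.987), Pkm (pyruvate kinase M, 0.985) and Tapbp (0.981) for Psmb9, and Il18bp (0.985), Irf8 (an interferon regulatory factor, 0.980) and Uba7 (the activating enzyme of ISG15, 0.976) for Psmb10. Bak1 (0.977), Cd274 (the checkpoint ligand PD-L1, 0.972) and AW112010 (0.970) were closest to Psme1, and Idnk (0.970), Ifi47 (an interferon-induced GTPase, 0.964) and Irf1 (0.960) to Psme2. Without the 2 farthest libraries, Flox 3 and 4, these r were between 0.749 (Pkm with Psmb9) and 0.962 (Irf8 with Psmb10).

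The constitutive genes had other neighbours. Rnf187 (0.985), Ppp1r35 (0.962) and Ciao3 (0.958) were closest to Psmb5. D8Ertd738e (0.951), Mrps12 (a mitochondrial ribosomal protein, 0.949) and Gabarap (an autophagy protein, 0.944) were closest to Psmb6. Gsta3 (a glutathione transferase, 0.959), Impg2 (0.957) and Ces1d (a carboxylesterase, 0.955) were closest to Psmb7. Nfe2l1, the transcription factor NRF1 that drives standard proteasome genes, had r = 0.91 with Psmb6 (rho = 0.83), 0.67 with Psmb5 and -0.52 with Psmb7. Its r with the induced genes ranged from 0.66 (Psmb9 and Psmb10) to 0.84 (Psme2), and from 0.29 to 0.82 without Flox 3 and 4. Alb had r = -0.89 with Psmb6, -0.52 with Psmb5 and 0.65 with Psmb7, or -0.90, -0.61 and 0.66 without Flox 3 and 4. With the induced genes the r of Alb ranged from -0.92 (Psme2) to -0.76 (Psme1). Without Flox 3 and 4 it ranged from -0.76 (Psme2) to -0.00 (Psmb9).

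**Figure D4:**
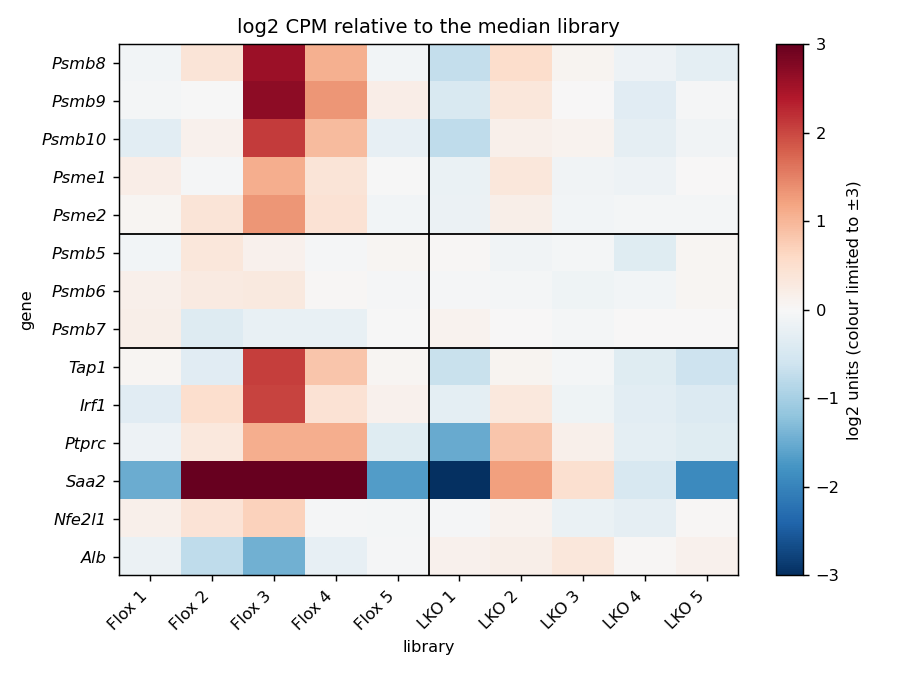
Log2 CPM of the 8 members and 6 other genes in each library, relative to the median library (red above, blue below, colour limited at 3 units). The induced genes, Tap1 and Irf1 are highest in Flox 3, while Saa2 is also high in Flox 2, where Psmb8 and Psme2 are 0.38 and 0.39 units above their medians and Psmb9 is near its own (-0.02).

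The rest of the proteasome showed small differences. Of the 7 alpha ring genes 5 had lower LKO values (median log2 fold change -0.08), and of the 4 non-catalytic beta genes 4 did (-0.09). Of the 6 ATPases of the 19S cap, which unfold the substrate, 5 were on the lower side (-0.08), as were 8 of its 12 other subunits (-0.08). In all these lists 0 genes passed the adjusted threshold. Psma5, an alpha ring subunit, was the 1 gene among them with an unadjusted p under 0.05, at 53.2 ± 7.89 CPM in Flox and 45.03 ± 2.95 CPM (SD) in LKO (log2 fold change -0.24 ± 0.10 SE, edgeR adjusted p = 0.652; -0.14 without Flox 3). Psmb4, a non-catalytic beta subunit, had a log2 fold change of -0.20 ± 0.10, Psmc6 0.19 ± 0.12, Psmd3 -0.23 ± 0.11 and Psmd4, a ubiquitin receptor, -0.22 ± 0.11 (SE).

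Assembly chaperones were split, with 4 of 8 lower (median -0.05). Pomp, the maturation protein that builds the beta ring, was at 108 ± 16.2 CPM over the Flox libraries, against 91.2 ± 8.14 CPM in LKO (SD, n = 5 each; edgeR unadjusted p = 0.0511). Its highest library was again Flox 3, at 132.5 CPM, and its log2 fold change was -0.25, or -0.16 without that library. Of the other activators and the inhibitor, 1 of 3 was lower (median 0.01), with Psme4, the PA200 cap, at 0.15 ± 0.11 (SE). Of the 5 genes around NRF1 and NRF2, 3 were lower (median -0.15), including Nfe2l1 at -0.32 ± 0.15 (-0.19 without Flox 3) and Ddi2, the protease that activates NRF1, at -0.25 ± 0.14 (SE). In these 3 lists 0 genes passed the adjusted threshold.

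Genes upstream of the induced subunits and beside them in antigen presentation had medians farther from 0. Of 17 tested genes of interferon receptors and signal, 13 were lower in LKO (median log2 fold change -0.42), 0 passed the adjusted threshold, and 6 lower and 1 higher had an unadjusted p under 0.05. Irf9 and Stat2, which form the interferon-activated complex, had log2 fold changes of -0.42 ± 0.13 and -0.51 ± 0.18 (SE; edgeR adjusted p = 0.652 each). Without Flox 3 these were -0.37 and -0.41, and without Flox 3 and 4 they were -0.39 and -0.40. Ifng itself, the cytokine that induces the members, had 29 counts over all libraries and was not tested.

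Of the 11 genes that supply peptides to MHC class I, 11 were lower (median -0.37), 4 of them at an unadjusted p under 0.05, and 0 passed the adjusted threshold. Tap1, which overlaps Psmb9 head to head, was at 36.9, 27.7, 149.8, 63.4 and 36.9 CPM in Flox and 22.0 to 37.6 CPM in LKO. Its r was 0.97 with Psmb9 and 0.95 with Psmb8, or 0.74 and 0.64 without Flox 3 and 4. Tapbp had a log2 fold change of -0.79 ± 0.32 (SE; edgeR adjusted p = 0.652). Without Flox 3 it was -0.37 for Tapbp and -0.52 for Tap1, and without Flox 3 and 4 it was -0.19 and -0.24. The median of the 11 genes was -0.25 without Flox 3, with 10 lower, and -0.13 without both, with 9 lower. For the 17 interferon genes the median was -0.36 without Flox 3, with 13 lower, and -0.05 without both, with 11 lower.

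**Figure D5:**
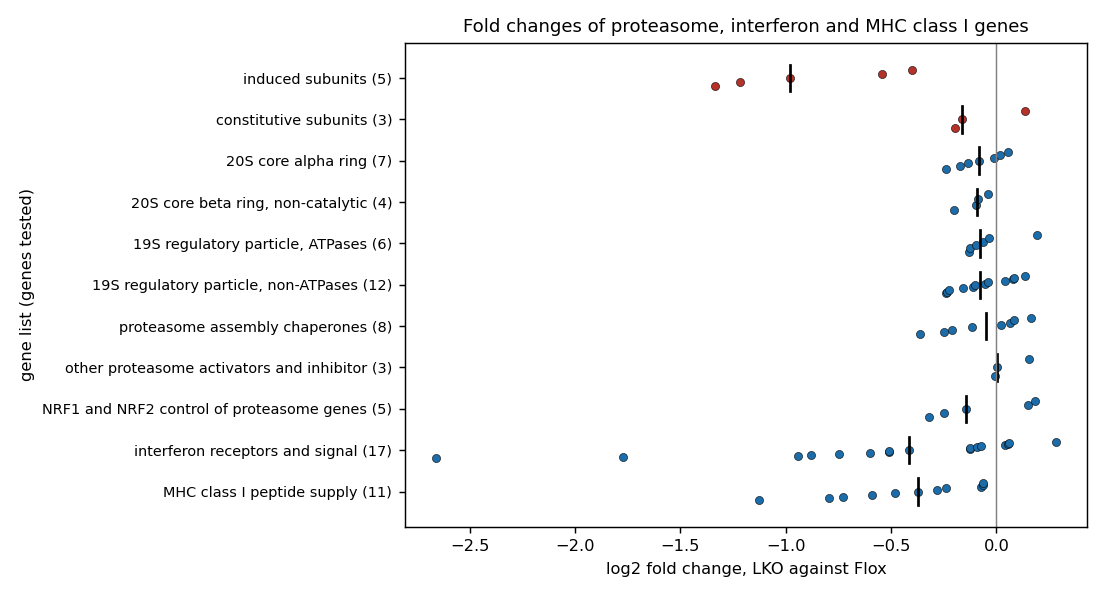
Log2 fold change of LKO against Flox for each tested gene of the 8 members (red) and of the other proteasome, interferon and MHC class I lists (blue), with the list median as a bar. The induced subunits have a median of -0.98, the 4 lists of standard proteasome subunits medians of -0.08 or -0.09.

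Immune cell markers were also mostly lower in LKO, and their part in the values of the induced genes was not tested. Of 8 pan-leukocyte and myeloid markers 8 were lower in LKO, with a summed level of 70.8 to 220.6 CPM in Flox and 34.8 to 180.2 CPM in LKO. Of 9 T and NK cell markers 9 were lower (4.13 to 12.95 against 2.06 to 4.92 CPM), as were 6 of 6 Kupffer cell markers (61.0 to 425 against 41.3 to 392 CPM). B and plasma cell markers were lower for 3 of 5 (4.17 to 25.0 against 6.60 to 16.7 CPM), and sinusoidal endothelial markers for 1 of 5 (58.4 to 84.6 against 53.9 to 80.8 CPM). None of these markers was at 0 in any library. Without Flox 3 and 4, 7 of the 9 T and NK cell markers, 6 of the 8 pan-leukocyte and myeloid markers and 1 of the 6 Kupffer cell markers were lower in LKO.

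Ptprc, the pan-leukocyte surface phosphatase CD45, was at 5.16, 7.16, 12.3, 12.2 and 4.44 CPM in Flox and at 2.0, 10.2, 6.41, 4.67 and 4.44 CPM in LKO. It was nearly equal in Flox 3 and 4, where Psmb8 was at 139 and 49.4 CPM. Its r with Psmb8 was 0.83, and 0.97 without those 2 libraries. With Psmb9, Psmb10, Psme1 and Psme2 its r was 0.75, 0.82, 0.75 and 0.73. Without Flox 3 and 4 these were 0.78, 0.93, 0.69 and 0.70. The other markers in the list of Ptprc were not all equal in Flox 3 and 4. Of the 8 pan-leukocyte and myeloid markers, 5 were highest in Flox 3 and 3 in Flox 4. Ccr2 was at 7.51 CPM in Flox 3 and 2.90 CPM in Flox 4, and Csf1r at 28.0 and 72.0 CPM. Of the 9 T and NK cell markers, 5 were highest in Flox 3 and 3 in Flox 4. Among the latter was Cd3e, of the T cell receptor complex, at 0.855 CPM in Flox 4 and 0.437 CPM in Flox 3. The r of Cd3e with the induced genes ranged from 0.35 (Psme1) to 0.50 (Psmb10). Without Flox 3 and 4 it ranged from -0.08 (Psme1) to 0.34 (Psme2).

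Hepatocyte, acute phase and erythroid genes had unequal group values as well, with 0 past the adjusted threshold. Hepatocyte markers were higher in LKO for 5 of 6, and summed to 50650 to 119500 CPM in Flox and 125100 to 153000 CPM in LKO. Most of that sum is Alb, and by the mean log2 CPM of the list the groups overlapped (11.52 to 12.53 in Flox, 12.34 to 12.72 in LKO). Acute phase genes were lower in LKO for 8 of 8 (median log2 fold change -3.56), summing to 3597 to 68520 CPM in Flox and 3085 to 9881 CPM in LKO. Of these 8 genes, 7 were highest in Flox 3. Their median was -1.72 without Flox 3 and -1.45 without Flox 3 and 4, with 8 lower in each case. Erythroid genes were higher for 5 of 5 (1.02), at 174.9 to 296.5 against 350 to 656.5 CPM in sum, while their mean log2 CPM overlapped (2.17 to 3.53 against 2.94 to 4.61). Saa2 was at 37.8, 7476, 17180, 1874 and 33.3 CPM in Flox and 12.1 to 248 CPM in LKO. Its r over the 10 libraries was 0.86 with Psmb8, 0.74 with Psmb9, 0.84 with Psmb10, 0.69 with Psme1 and 0.88 with Psme2. Without Flox 3 and 4 these were 0.79, 0.32, 0.72, 0.18 and 0.91. The constitutive Psmb5, Psmb6 and Psmb7 had r = 0.44, 0.66 and -0.89 with Saa2, or 0.46, 0.51 and -0.90 without Flox 3 and 4. The part of these differences in the values of the members was not tested.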

How the data were processed

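The authors deposited raw read counts for each Ensembl gene, in 1 column per library. The values are whole numbers and were not normalized. Per the submitters' processing notes, bcl2fastq, STAR 2.5.1a, Subread, featureCounts 1.4.6-p5 and GRCm38 were used. The sources used here do not give strandedness, the handling of multi-mapping reads or the release of the annotation. After 287 repeated identifiers with identical counts were dropped, 55487 genes remained. LKO columns (1 to 5) could not be matched to titles (6 to 10) and were used by group. No 2 libraries agreed within sampling noise (mean chi-square per gene 41.2 to 768 over 45 pairs). Genes passing filterByExpr (15894) were scaled by TMM (factors 0.963 to 1.04) and tested over all genes with edgeR 4.0.16 (R 4.3.3; robust quasi-likelihood, no covariate, Benjamini-Hochberg threshold 0.05, two-sided). Log2 CPM used a prior count of 2. P-values measure only the spread between these libraries, which may be technical.

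Positions and lengths are from GENCODE M21 (GRCm38). RPKM divides CPM by the length of all annotated exons, or of the longest principal transcript. Named genes were the 8 members, the 2 genes of smallest p in each list, the 3 closest profiles per member with average log2 CPM 1 or more, and Ptprc, Cd3e, Alb, Saa2 and Arg2. Not all are printed, and some single genes of the lists are not reported here. Ifng and the copies and overlapping genes were named after their values were seen. The filter-level change of DESeq2 and the joint omission of Flox libraries were added after seeing the data. The members, lists and tests were chosen with earlier results of these data known. Alternatives used DESeq2 1.42.0, limma 3.58.1, other scalings and left-out libraries.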

Additional observations from a re-analysis of the deposited data

Results flagged for a closer look

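Among 22 sets of 5 values checked (8 genes and 3 ratios in each group), 5 held a value far from the others. If values are normally distributed, chance flags about 1 set in 20. All 5 flagged values were of Flox library 3, which is in 11 of the sets. The gap to the nearest library, divided by the range of the group, exceeded 0.71 for Psmb8 (139.3 CPM, nearest 49.4), Psmb9 (120.2 CPM, nearest 46.9), Psme1 (288.5 CPM, nearest 176), Psme2 (164.9 CPM, nearest 89.2) and the count ratio of Psmb8 to Psmb5 (2.384, nearest 0.945). The flags are not independent, since they come from the same library and correlated genes. Psmb10 in the same library (157 CPM) fell short of the limit, with Flox 4 at 70.7 CPM. The flags also depend on the scale, since CPM and count ratios were checked without logs. In log2 units the gaps of all 5 flagged values fall short of the limit. For Psmb8, log2 CPM was 7.12 in Flox 3, 5.63 in Flox 4 and 4.47 in Flox 1, its lowest Flox library.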

How the results depend on the processing

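The log2 fold changes of the 8 members kept their sign, and stayed outside the adjusted threshold, under all 19 alternatives of each (adjusted p from 0.36 to 1). Leaving out single libraries moved that of Psmb8 between -1.42 and -0.46, Psmb9 between -1.54 and -0.56, and Psmb10 between -1.17 and -0.37. With limma-voom and quality weights these 3 were -0.74, -0.86 and -0.60. DESeq2 with its default filter level, an added alternative, called 6 genes against 0, and the other 18 alternatives called 0. The number of genes with an unadjusted p under 0.05 was 575 without Flox 3, 739 without LKO column 4, 1885 without Flox 5, 448 without Flox 3 and 4, 517 without Flox 2 and 3 and 2043 with no filter on low counts, against 1193. The number of induced genes under that p was 3, and from 0 to 5 with single libraries left out (0 without Flox 3 or 4 or LKO column 1, 3, 4 or 5). In those settings at 0, 3.55% to 7.84% of all genes were under it. Without Flox 2 and without Flox 5 all 5 were, against 6.31% and 11.7% of all genes. The number was 0 with limma-voom (6.6% of all genes), with no filter (6.19%) and with the block (9.66%). With DESeq2 it was 4 at either filter level, against 1603 genes (4.87% of 32926). The ratio of Psmb8 to Psmb5 turned direction with group medians (0.08) and without Flox 3 and 4 (0.01), as did that of Psmb9 to Psmb6 in the latter case (0.05). The column numbers do not pair the samples by any label (correlations of deviations 0.35, 0.09, 0.07, 0.10 and 0.29, with 4 of 10 libraries closest to their own number). With the number as a replicate block 0 genes passed, and 1535 had an unadjusted p under 0.05. Depth is not a limit for the members, whose lowest count was 610.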
